A study of Mus musculus with 53 samples.

Results

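RNA bound to ribosomes was compared with total cytoplasmic RNA in the adult hearts of CAG mice that had no surgery. The members were the genes at 1 RPKM (reads scaled by transcript length and by library depth) or more in CAG TRAP or in CAG input, and 10862 of the 34306 genes of the table met this. Of these, 9007 reached 1 RPKM in both libraries, 194 in TRAP alone and 1661 in input alone. Within 5% above the threshold lay 157 members, with a median difference of -0.37 on the log2 scale used below, and the 160 genes within 5% under it, just outside, had a median of -0.34.

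The unoperated CAG hearts gave 1 TRAP library and 1 input library, and the labels give neither the sex, the exact age nor the number of these animals. CAG mice express the tagged ribosome in every cell lineage, according to the labels of an earlier deposit of the series. CAG hearts after aortic banding and after sham surgery, from male mice, gave 2 TRAP and 2 input libraries each and were used to ask whether a difference recurred. Hearts of unoperated Tie2 mice, whose tag is switched on by a Cre that the earlier labels describe as endothelial, gave an input library from all heart cells, which served as a second unoperated input. The Tie2 TRAP library itself, not described further here, held macrophage and leukocyte markers at a summed 7318 RPKM, against 825 RPKM in Tie2 input. All of these were pooled RNA from adult hearts, so the number of animals behind a library is not known, and p-values measure the spread between these libraries only.

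TRAP, translating ribosome affinity purification, pulls tagged cytosolic ribosomes out of a lysate together with the RNA they hold. An mRNA loaded with many ribosomes is recovered well, an mRNA held back from translation is recovered poorly, and RNAs that work without being translated in the cytosol should be nearly absent. The heart is a demanding tissue for such a comparison because its myocytes devote much of their RNA to the contractile apparatus and to mitochondria, and because mitochondria translate their own transcripts on ribosomes of their own.

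The TRAP library held 94878619 reads and the input library 26568988, while the CAG libraries after surgery held from 28621316 to 48867104. With no replicate of the unoperated pair, its differences carry no test. Between same-group libraries after surgery, the median absolute difference on the log2(RPKM + 1) scale over the members was 0.09 for sham TRAP, 0.08 for sham input, 0.21 for band TRAP and 0.11 for band input, and 42, 16, 345 and 31 members differed by more than 2-fold. Tie2 input and CAG input, both unoperated, differed by a median of 0.24, with 358 members past 2-fold. The tissue label held: in the unoperated hearts Myl2, the ventricular regulatory light chain, was at 32371 RPKM in TRAP and 16958 in input. The hearts held atrial RNA. Myl7, the atrial light chain, measured 4549 RPKM in TRAP and 2724 in input, against at most 28.8 RPKM in TRAP and 23.6 in input after surgery.

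Most genes were recovered with ribosomes about in proportion to their input level. The difference, TRAP minus input on the log2(RPKM + 1) scale, had a median of -0.27 over the 10862 members, with 5% of members below -1.17 and 5% above 0.69. Past 2-fold, 112 genes were higher in TRAP (1.03%) and 891 lower (8.20%), or 9.23% in either direction, and 9859 (90.8%) stayed within 2-fold. No read in TRAP was found for 62 members and none in input for 2. The split of higher and lower depends on how the libraries are scaled. Mitochondrial transcripts took 0.0259% of reads in TRAP and 14.3% in input. With the median of all members set to 0, which shifts every difference by 0.27, 465 genes were higher and 423 lower. Quantile normalization, which shifts the median by 0.30, gave 216 higher and 444 lower, and counting reads without mitochondrial and haemoglobin genes, which shifts it by -0.17, gave 46 and 1494. Gene groups are therefore described below by their median beside that of all members, -0.27. Of the groups described, the atrial, translation control and Zfp lists changed side of that median under the rescaled or quantile values, and the endothelial median changed sign but not side.

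**Figure D1:**
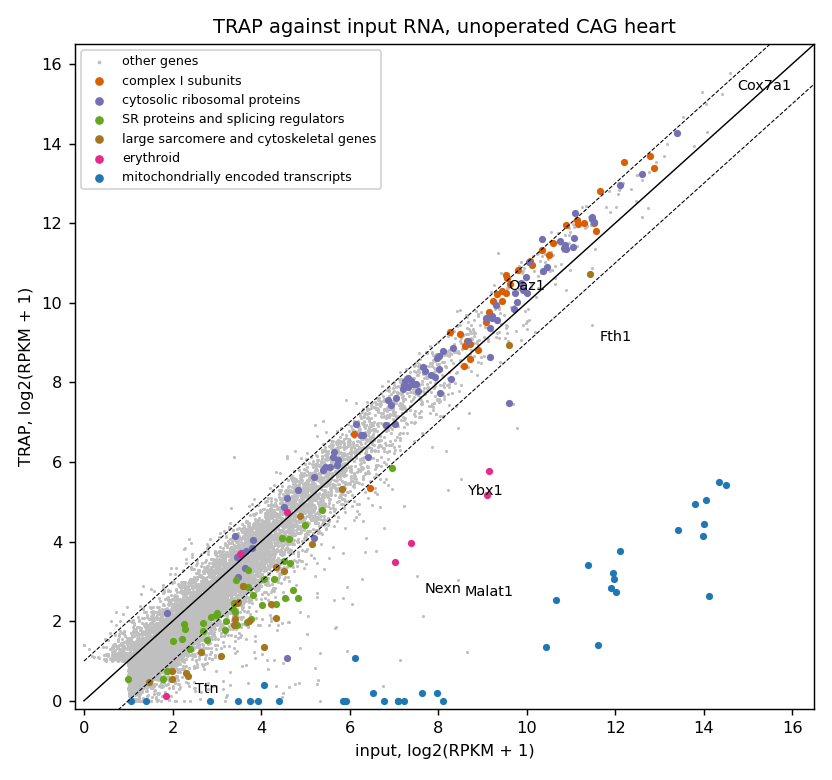
Each point is 1 of the 10862 genes, with its TRAP level on the vertical axis and its input level on the horizontal axis, both as log2(RPKM + 1) in unoperated CAG heart. The solid line marks equal levels and the dashed lines 2-fold, and coloured points mark 6 gene lists. The mitochondrially encoded transcripts lie far under the line, red cell genes next, and complex I subunits mostly above it.

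The genes past 2-fold without surgery were compared with the CAG libraries after surgery, which share no sample with them. Across all libraries, limma tested TRAP against input over sham and band together on log2(RPKM + 1), and called 2625 of 11654 genes higher (22.5%) and 4107 lower (35.2%) at an adjusted p under 0.05, with 10806 of the members among those tested. This balance also depends on scaling, with 3366 higher and 2798 lower after quantile normalization, and 1458 and 6034 when reads are counted without mitochondrial and haemoglobin genes. Of the 891 lower genes, 877 were tested there, and 651 (74.2%) were called lower and 0 higher, against 35.2% called lower over all genes tested. Of the 112 higher genes, 69 (61.6%) were called higher and 12 lower, against 22.5% called higher over all genes tested. The counts of each list called after surgery, given below, are to be read beside these shares of 22.5% higher and 35.2% lower. Past 2-fold lower in all 5 TRAP and input pairs (1 unoperated, 2 sham, 2 band) were 202 genes. Of these, 97 code for protein, 32 are encoded by mitochondria, 9 are long noncoding and 8 are annotated as short noncoding RNAs. Another 7 are pseudogenes, 1 is of another class and 48 had no match by symbol. Some of the 48 are small noncoding RNAs as well, such as 7SK and U1. No gene was past 2-fold higher in all 5 pairs. When Tie2 input replaced CAG input, 444 of the 891 lower and 41 of the 112 higher genes were still past 2-fold, and of the 202 genes 187 were.

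The differences followed transcript length. Without mitochondrially encoded genes, the median difference was 0.24 for 649 transcripts under 500 bases and 0.29 for 1043 of 500 to 1000 bases. It was -0.01 for 2329 transcripts of 1000 to 2000 bases and -0.31 for 4098 of 2000 to 4000 bases. At 4000 to 8000 bases it was -0.53 over 2415 transcripts, and at 8000 bases or more -0.72 over 291. In the longest class 0 genes were past 2-fold higher and 70 lower, while the shortest class held 51 higher and 130 lower. Over 4937 genes of 500 bases or longer with a mean of at least 5 RPKM, the difference fell by 0.26 per doubling of length, and in the sham and band pairs by 0.22, 0.18, 0.17 and 0.17. The part that the library preparation takes in this slope was not tested.

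**Figure D2:**
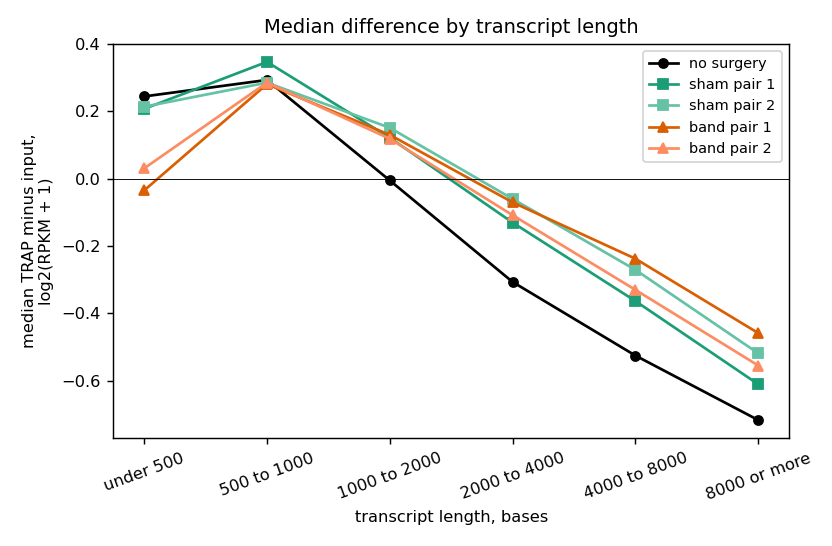
Median TRAP minus input difference, on the log2(RPKM + 1) scale, for genes grouped by transcript length in bases, one line per TRAP and input pair of CAG hearts. From 500 bases upward every line descends with length, and the unoperated pair ends lowest, at -0.72.

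The transcripts made inside mitochondria held the 15 most negative differences. All 37 were members and past 2-fold lower, but 15 of them had no read in TRAP. These 15, and others under 1 RPKM in TRAP such as mt-Tk at 0.324 RPKM, became members through input alone, which fixes their direction. Those with reads in TRAP differed by -11.48, for mt-Te, to -3.65, for mt-Tk, both transfer RNAs. These 2 genes are 69 and 65 bases long, and reads of neighbouring or opposite-strand transcripts were not told apart from theirs. After surgery 34 of the 37 were called lower by limma. mt-Co1, the catalytic subunit of complex IV, reached 44.2 RPKM in TRAP and 20694 in input. mt-Cytb, cytochrome b of complex III, stood at 31.8 RPKM in TRAP and 16949 in input. mt-Nd1, a membrane subunit of complex I, was at 29.7 RPKM in TRAP and 14299 in input. mt-Rnr2, the large mitochondrial ribosomal RNA, behaved like the mRNAs, at 8.19 RPKM in TRAP and 3980 in input. As background, mitochondrial mRNAs are translated on mitochondrial ribosomes, which are built from other proteins than the tagged cytosolic ones. After surgery, mt-Co1 stood at 391 and 629 RPKM in sham TRAP and 245 and 100 RPKM in band TRAP, against 27394 and 26459 RPKM in sham input and 23166 and 23591 RPKM in band input. Every surgery TRAP library thus held more mt-Co1 than the unoperated one. The unoperated Tie2 input held 5323 RPKM of mt-Co1, and 3.17% of its reads were mitochondrial, so the size of the mitochondrial difference depends on which input is used.

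Some nuclear long noncoding RNAs were strongly depleted, and the long noncoding class as a whole was not. Malat1, a structural RNA of nuclear speckles, stood at 7.22 RPKM in TRAP and 347 in input, and at 14.2 to 27.0 RPKM in TRAP against 256 to 392 RPKM in input after surgery (limma log2 difference -4.06, SE 0.18, adjusted p = 1.4e-05). Neat1, the scaffold of paraspeckles, reached 0.939 RPKM in TRAP and 21.6 in input. Neat1 thus became a member through input alone, which fixes its direction in the unoperated pair. H19, an imprinted noncoding RNA, stood at 7.38 RPKM in TRAP and 77.1 in input. The 3 genes were past 2-fold lower in all 5 pairs. Gas5, a noncoding RNA that is spliced, exported and known to sit on ribosomes, was different, at 62.2 RPKM in TRAP and 47.2 in input. Over all 252 members annotated as long noncoding, the median was 0.24, with 14 higher and 17 lower past 2-fold. Pseudogenes, 867 members with a median of 0.07, had 33 higher and 73 lower; they share sequence with their parent genes, so their reads are uncertain.

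Of 119 listed genes for RNAs that guide the modification of other RNAs in the nucleolus and Cajal bodies, 12 were members. Of these 12, 8 were under 1 RPKM in TRAP and so became members through input alone, which fixes their direction, and no count or median over the list is given. Scarna17, a Cajal body guide RNA, was at 4.37 RPKM in TRAP and 65.3 in input. Another entry, SCARNA17, was at 115 RPKM in TRAP and 883 in input. It and other members with symbols of a different form, such as SNORA65, are not counted in this list. Scarna2, of the same kind, was at 1.09 RPKM in TRAP and 13.6 in input. Snord104 was higher in TRAP, at 90.2 RPKM in TRAP and 50.5 in input, and Snord49b had 9 reads in TRAP and 2 in input. These genes are short and many lie inside introns of other genes, whose reads cannot be told apart from theirs without strand and splice information.

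Mature microRNAs are too short for these libraries, so the reads at microRNA loci came from longer transcripts. Precursors of the microRNA and other RNA that overlaps the locus, such as that of a host gene, were not told apart. Of 833 microRNA and other short RNA loci, 22 were members, and 10 of these had no read in TRAP and became members through input alone, so no count or median over them is given. RefSeq hairpins were found for 16 of the 21 microRNA loci. The hairpins of 3 loci show which stretch the reads were counted on, with the mature arms in capitals, from RefSeq on GRCm38.p6 (the authors counted reads on NCBIM37). Mir24-2 lies on the plus strand at chr8:84208815-84208921, Mir339 on the minus strand at chr5:139369650-139369745, and Mir208b on the minus strand at chr14:54975700-54975776.
Mir24-2: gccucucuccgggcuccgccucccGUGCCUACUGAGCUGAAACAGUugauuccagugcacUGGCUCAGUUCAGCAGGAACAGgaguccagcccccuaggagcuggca
Mir339: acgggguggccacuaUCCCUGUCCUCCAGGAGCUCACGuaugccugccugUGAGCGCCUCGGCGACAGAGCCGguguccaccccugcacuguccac
Mir208b: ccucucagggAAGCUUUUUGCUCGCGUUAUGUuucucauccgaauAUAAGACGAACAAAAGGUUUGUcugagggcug

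The hairpin counts were small. Mir24-2 had 0 reads in TRAP and 17 in input, or 0 RPKM, which allows up to 0.296 RPKM, against 5.98 RPKM, at least 20.2-fold lower with that limit of 3 reads. The 95% exact counting interval of the ratio, which also covers the error of the input reads, starts at 14.7-fold. Mir339 had 2 reads in TRAP and 20 in input, at 0.220 RPKM and 7.84 RPKM. Its ratio of input to TRAP was 35.7 (95% exact counting interval 8.67 to 315). Mir339 also became a member through input alone, which fixes its direction in the unoperated pair. Mir133a-2, the locus of a muscle microRNA, had 15 reads in TRAP and 79 in input, at 1.52 RPKM and 28.6 RPKM. Mir208b, inside an intron of the myosin gene Myh7, was less separated, with 72 reads in TRAP and 39 in input, at 9.86 RPKM and 19.1 RPKM. Its relative Mir208a, inside Myh6, had 0 reads in TRAP and 4 in input. The mature arms that this pair of myosin loci gives share a seed, bases 2 to 8, shown in capitals beside those of miR-24 and miR-339.
mmu-miR-208a-3p: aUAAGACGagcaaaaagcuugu
mmu-miR-208b-3p: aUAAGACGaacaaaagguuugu
mmu-miR-24-3p: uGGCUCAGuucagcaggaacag
mmu-miR-339-5p: uCCCUGUCcuccaggagcucacg
After surgery limma called Mir24-2 (log2 difference -2.19, SE 0.18, adjusted p = 0.00012), Mir339 (-2.24, SE 0.19, adjusted p = 0.00015) and Mir133a-2 (-3.32, SE 0.09, adjusted p = 1.9e-06) lower in TRAP. Intervals and limits of detection here cover counting error only.

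Globin messages were much lower in TRAP. Of 7 erythroid members, 5 were past 2-fold lower in the unoperated pair and in each surgery pair, while Bpgm and Fech, enzymes that other cells also make, were not. Hbb-b1, a beta globin, stood at 35.3 RPKM in TRAP and 548 in input, and Hba-a1, an alpha globin, at 53.8 RPKM in TRAP and 568 in input. Alas2, which starts haem synthesis in red cell precursors, reached 0.0828 RPKM in TRAP and 2.62 in input. It thus became a member through input alone, which fixes its direction. Circulating red cells carry globin mRNA but few ribosomes, which is background here. In this bulk comparison, fewer tagged cells of a type and less ribosome-bound RNA per cell cannot be told apart. The alpha globin genes are near-identical copies, so the division of reads between them is uncertain.

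Ferritin messages, whose translation is known to be held back, were lower in TRAP in every pair. Fth1, the ferritin heavy chain, is bound by iron regulatory proteins when iron is scarce. It stood at 697 RPKM in TRAP and 2848 in input, a difference of -2.03. After surgery it stood at 729 and 688 RPKM in sham TRAP and 617 and 531 RPKM in band TRAP, against 2545 and 2657 RPKM in sham input and 2746 and 2706 RPKM in band input (limma log2 difference -2.06, SE 0.07, adjusted p = 4.1e-06). TRAP and input levels of Fth1 did not overlap. Ftl1, the ferritin light chain under the same control, was at 29.0 RPKM in TRAP and 90.6 in input, and was called lower after surgery (-2.03, SE 0.11, adjusted p = 4.0e-05). Tfrc, the transferrin receptor, whose iron elements act on RNA stability, measured 1.34 RPKM in TRAP and 6.30 in input, but its 4 surgery pairs spread from -1.32 to 0.18 and limma did not call it (adjusted p = 0.13).

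Ybx1 was lower in TRAP by a similar amount in every pair. It encodes an RNA-binding protein that packages mRNA and is reported to repress its own translation. Ybx1 reached 46.4 RPKM in TRAP and 365 in input without surgery. In sham hearts it stood at 60.9 and 68.0 RPKM in TRAP against 532 and 504 RPKM in input, and in band hearts at 53.7 and 62.2 RPKM in TRAP against 485 and 465 RPKM in input. The 5 differences lay between -3.15 and -2.87, and limma called the surgery difference at -3.00 (SE 0.07, adjusted p = 1.6e-06). Pabpc1, the cytoplasmic poly(A)-binding protein, whose own mRNA binds it, was at 13.7 RPKM in TRAP and 48.0 in input. Zc3h12a, an endonuclease that degrades cytokine mRNAs, measured 3.24 RPKM in TRAP and 17.6 in input. Spop, a ubiquitin ligase adaptor, stood at 12.3 RPKM in TRAP and 80.6 in input, and Sord, sorbitol dehydrogenase, at 15.9 RPKM in TRAP and 81.4 in input. Ybx1, Zc3h12a, Spop and Sord were past 2-fold lower in all 5 pairs, and these 4 genes were chosen for mention after their values were seen.

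Messages known for induced translation did not share a direction. Oaz1, ornithine decarboxylase antizyme, needs a ribosomal frameshift to be read in full. It stood at 1706 RPKM in TRAP and 679 in input, a difference of 1.33, and was called higher after surgery (1.01, SE 0.21, adjusted p = 0.0060). Atf4, a stress transcription factor read through upstream reading frames, was at 45.4 RPKM in TRAP and 44.8 in input, a difference of 0.02. Its surgery pairs lay between 0.00 and 0.18. Ddit3, a target of Atf4, measured 29.0 RPKM in TRAP and 25.6 in input. Over the 19 members listed for translation control, which include the ferritins, 1 was past 2-fold higher and 3 lower, with a median of -0.20.

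**Figure D3:**
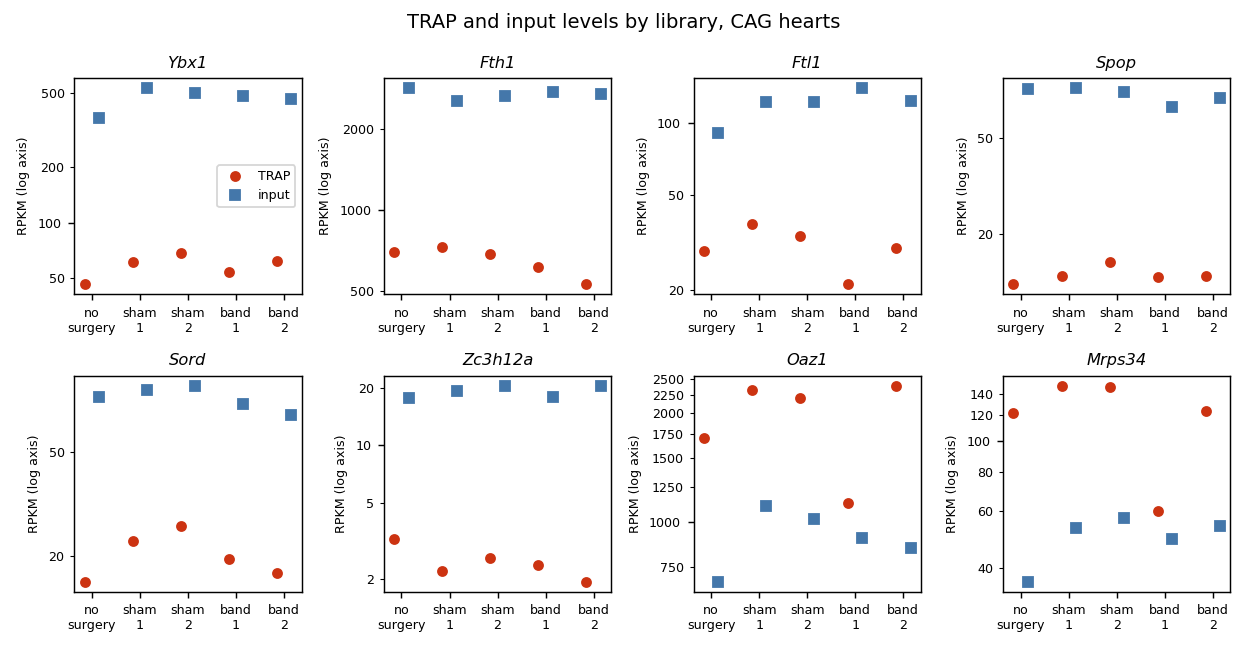
Levels of 8 genes in RPKM on log axes, in TRAP (circles, left) and input (squares, right) of the 5 pairs of CAG hearts, 1 library per point. Ybx1, Fth1, Ftl1, Spop, Sord and Zc3h12a are lower in TRAP in all 5 pairs, and Oaz1 and Mrps34 are higher, with the smallest gap in band pair 1.

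Cytosolic ribosomal protein messages lay above the median of all members. Of 85 cytosolic ribosomal protein genes, 2 were past 2-fold higher and 3 lower, 75 were above 0, and the median was 0.45, against 0.24 for members of like length. After surgery 57 of the 85 were called higher and 4 lower by limma. Rps29 and Rplp1, of the small subunit and the stalk, were among the most abundant, at 19738 and 8012 RPKM in TRAP and 10837 and 4442 RPKM in input. Rpl41, the smallest ribosomal protein, reached 3125 RPKM in TRAP and 1298 in input. Rpl10a, a large-subunit protein commonly tagged in TRAP mice, stood at 9.11 RPKM in TRAP and 11.4 in input. Ribosomal protein genes have many processed pseudogenes, so single values depend on how the authors' counting treated shared reads. The factors that start and extend translation had a median of -0.33, near the -0.31 of members of like length. Of 60 such genes, 0 were higher and 7 lower (11.7%, against 8.20% of all members). Eif3a, the largest subunit of its initiation complex, was at 9.17 RPKM in TRAP and 30.2 in input. The median of 22 aminoacyl-tRNA synthetase genes was -0.48, with 2 lower.

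Nuclear-encoded respiratory chain messages were recovered with ribosomes above the rest. Of 36 complex I subunits, 6 were past 2-fold higher and 1 lower, and 35 lay above the median of all members. The list's median was 0.77, against 0.24 for members of like length. In the 4 surgery pairs the medians were 0.74, 0.66, 0.66 and 0.72, and limma called 35 of the 36 higher and 0 lower. Ndufa13, an accessory subunit, measured 1582 RPKM in TRAP and 750 in input, and its surgery difference was 1.07 (SE 0.06, adjusted p = 4.5e-05). Ndufa3, another accessory subunit, reached 11913 RPKM in TRAP and 4724 in input. Ndufs1, the large iron-sulfur subunit, was the exception, at 39.8 RPKM in TRAP and 86.8 in input. For the 42 nuclear genes of complexes II to V the median was 0.54, against 0.27 for members of like length. Of the 42 genes, 6 were higher and 1 lower, and 37 were called higher and 0 lower after surgery. With the trend on transcript length removed, the complex I median was 0.33 and that of complexes II to V 0.20, against -0.28 for all members. Cox7a1, the muscle form of a subunit of complex IV, stood at 55599 RPKM in TRAP and 24840 in input. Atp5k, a subunit of ATP synthase, was at 40214 RPKM in TRAP and 16059 in input. The alpha subunit of ATP synthase, Atp5a1, whose transcript is longer, measured 623 RPKM in TRAP and 870 in input.

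Mitochondrial ribosomes and import proteins followed the respiratory chain, and the matrix pathways did not. Mitochondrial ribosomal proteins had a median of 0.34 over 75 genes, 2 higher and 0 lower, and 60 were called higher and 0 lower after surgery. Mrps34, of the small mitochondrial subunit, had the largest positive difference of any protein-coding member of 5 RPKM or more. It stood at 121.8 RPKM in TRAP and 36.1 in input, and after surgery at 148 and 147 RPKM in sham TRAP and 60.1 and 124 RPKM in band TRAP, against 53.4 and 57.0 RPKM in sham input and 49.2 and 53.9 RPKM in band input. Mrpl54 stood at 430 RPKM in TRAP and 188 in input. The 27 import proteins had a median of 0.55, with 0 higher and 2 lower, and 19 were called higher and 2 lower after surgery; Tomm7, of the outer membrane pore, was at 1789 RPKM in TRAP and 969 in input. By contrast fatty acid oxidation genes had a median of -0.38 over 27 genes, citric acid cycle genes -0.43 over 18 and glycolysis genes -0.35 over 19, each near the -0.31 of members of like length. Hadha, the trifunctional protein of fatty acid oxidation, measured 170 RPKM in TRAP and 220 in input. Cs, citrate synthase, reached 181 RPKM in TRAP and 257 in input. After surgery the medians of the fatty acid list lay between 0.02 and 0.12 and those of the citric acid cycle between 0.00 and 0.21. In every surgery pair both lists lay above the median of genes at 1 RPKM or more in that pair, which was between -0.11 and -0.04.

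**Figure D4:**
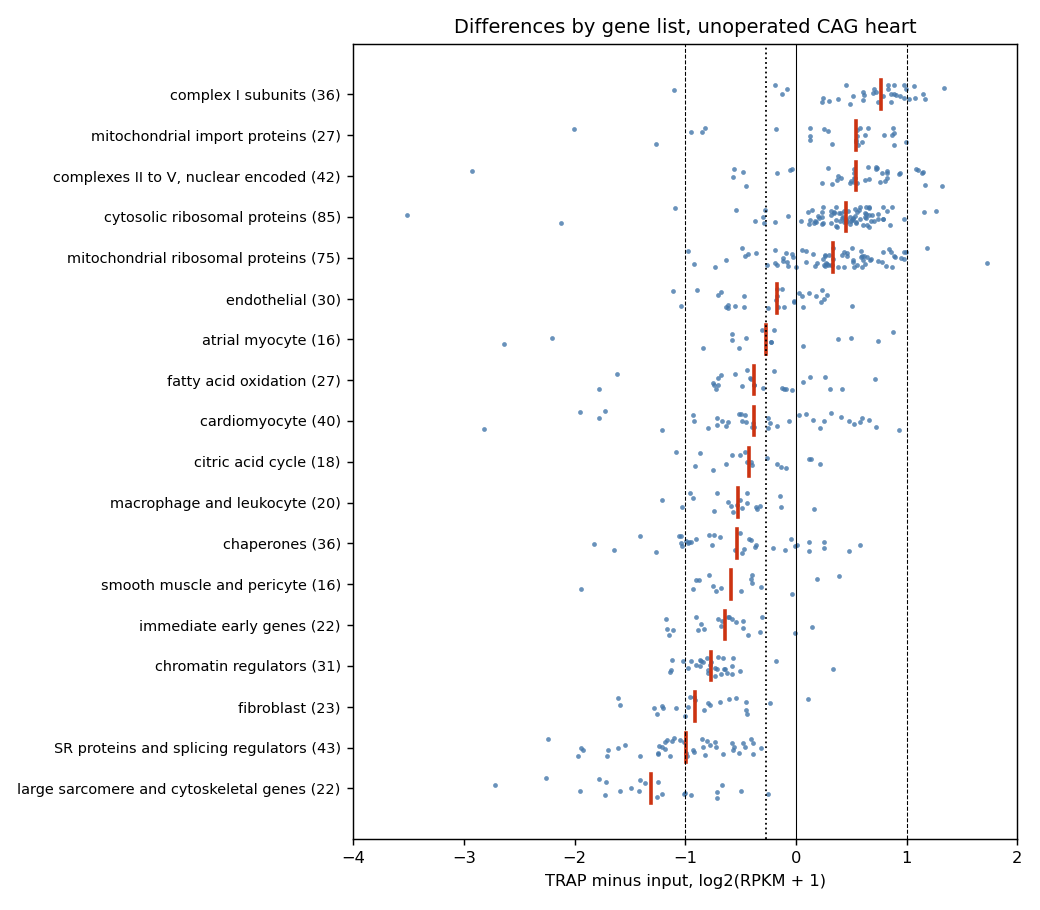
Each point is a gene of 1 of 18 lists (number of genes in brackets), placed by its TRAP minus input difference on the log2(RPKM + 1) scale in unoperated CAG heart. Red bars are list medians, the dotted line is the median of all members, -0.27, and dashed lines mark 2-fold. Complex I subunits lie highest, at 0.77, and large sarcomere and cytoskeletal genes lowest, at -1.31.

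The messages of the 3 cardiac troponins were higher in TRAP, by less than 2-fold. Tnnc1, the calcium sensor of the thin filament, stood at 9519 RPKM in TRAP and 5761 in input. Tnni3, its inhibitory partner, was at 7483 RPKM in TRAP and 5210 in input, and Tnnt2, the subunit that anchors both, at 15558 RPKM in TRAP and 13983 in input. Other thin filament messages were lower: Actc1, cardiac actin, stood at 4541 RPKM in TRAP and 6253 in input, and Tpm1, a tropomyosin, had a difference of -0.61. The giant messages were depleted: of 22 large sarcomere and cytoskeletal genes, 16 were past 2-fold lower and 0 higher, with a median of -1.31 against -0.72 for members of like length. After surgery 21 of the 22 were called lower and 0 higher. Ttn, the sarcomere's elastic spring, measured 0.533 RPKM in TRAP and 4.08 in input. Ttn thus became a member through input alone, which fixes its direction in the unoperated pair. Xirp2, a protein of the intercalated disc, stood at 1.55 RPKM in TRAP and 15.8 in input, and Cmya5, a muscle anchoring protein, at 3.20 RPKM in TRAP and 19.1 in input. Ryr2, the calcium release channel, stood at 4.43 RPKM in TRAP and 17.6 in input. The myosin heavy chains lay between, with Myh6 at 1691 RPKM in TRAP and 2777 in input and Myh7 at 486 RPKM in TRAP and 775 in input. Over the 40 cardiomyocyte genes, some of which are in this list of giants, the median was -0.38, with 0 higher and 5 lower.

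Genes listed as small membrane proteins of muscle, not all of them particular to muscle, lay on the upper side. Romo1, a small mitochondrial membrane protein on this list, was at 3493 RPKM in TRAP and 1495 in input. The 10 members had a median of 0.50, against 0.24 for members of like length, with 1 higher and 0 lower. With the trend on transcript length removed the list's median was 0.04, against -0.28 for all members. Sln, sarcolipin, which restrains the atrial calcium pump, measured 2971 RPKM in TRAP and 1622 in input. Pln, phospholamban, which restrains the ventricular pump, reached 700 RPKM in TRAP and 958 in input, and its surgery pairs spread from -0.13 to 0.91.

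Atrial messages lay near all members. Sln, Myl7, Myl4 and Bmp10 were far lower after surgery, where Myl4 reached at most 3.47 RPKM, while Nppa, which stressed ventricles also make, still stood at 167 to 571 RPKM in TRAP and 138 to 459 RPKM in input. Nppa, atrial natriuretic peptide, stood at 3973 RPKM in TRAP and 2808 in input, Myl7 at 4549 RPKM in TRAP and 2724 in input, and Myl4, the other atrial light chain, at 365 RPKM in TRAP and 280 in input. Bmp10, an atrial growth factor, was at 9.56 RPKM in TRAP and 11.4 in input. Kcnj3, a channel subunit of atrial myocytes, was the lowest of the list, at 0.420 RPKM in TRAP and 7.87 in input. It became a member through CAG input alone, which fixes its direction, and Tie2 input held only 0.469 RPKM. Over 16 atrial members the median was -0.27, equal to that of all members, with 0 higher and 2 lower. Whether atrial and ventricular myocytes differ in ribosome loading was not tested. Nppb, brain natriuretic peptide, measured 1880 RPKM in TRAP and 987 in input, and was called higher after surgery (0.89, SE 0.07, adjusted p = 0.00012).

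Messages of fibroblasts, mural cells and macrophages lay below all members, and with CAG input those of endothelial cells did not. Of 23 fibroblast genes, 8 were past 2-fold lower and 0 higher, with a median of -0.92, and limma called all 23 lower after surgery. Gsn, an actin-severing protein abundant in cardiac fibroblasts, stood at 115 RPKM in TRAP and 349 in input, and Dcn, the matrix proteoglycan decorin, at 44.3 RPKM in TRAP and 109 in input. Collagen genes had a median of -0.76 over 17 genes, with 4 lower; Col1a1 stood at 12.5 RPKM in TRAP and 31.3 in input, and Col3a1 at 13.2 RPKM in TRAP and 31.8 in input. Smooth muscle and pericyte genes had a median of -0.59 over 16 genes, and Rgs5, a pericyte marker, was at 11.1 RPKM in TRAP and 45.5 in input. Macrophage and leukocyte genes had a median of -0.52 over 20 genes, 2 lower, and all 20 were called lower after surgery; Csf1r, the growth factor receptor of macrophages, measured 4.73 RPKM in TRAP and 10.7 in input. With CAG input, endothelial genes were not depleted relative to all members, with a median of -0.17 over 30 genes, 0 higher and 2 lower. With Tie2 input their median was -0.53, below the -0.36 over the 10910 genes at 1 RPKM or more in TRAP or Tie2 input. After surgery 5 of the 30 were called higher and 9 lower, against 22.5% called higher and 35.2% lower over all genes tested. Pecam1, an endothelial junction protein, reached 18.3 RPKM in TRAP and 16.7 in input. Erg, an endothelial transcription factor, was the lowest of the list, at 3.36 RPKM in TRAP and 8.42 in input. Members of like length had medians of -0.31 for the fibroblast, smooth muscle and endothelial lists, -0.53 for collagens and -0.01 for macrophages. Summed over each list, fibroblast markers stood at 520 RPKM in TRAP and 1012 in input, macrophage markers at 501 and 652 RPKM, smooth muscle markers at 601 and 824 RPKM and endothelial markers at 1419 and 1534 RPKM, and no marker of these 4 lists was at 0. The share of each cell type's ribosomes that carries the tag was not measured here, and its part in these values was not tested.

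Messages for the splicing machinery lay below all members. Of 43 SR proteins and splicing regulators, 21 were past 2-fold lower and 0 higher, none was above the median of all members, and the list's median was -0.998, against -0.31 for members of like length. After surgery 30 of the 43 were called lower and 0 higher, but the medians of the 4 pairs were nearer to 0, at -0.62, -0.37, -0.39 and -0.74, and 2 of the 43 were past 2-fold lower in all 5 pairs. Luc7l2, a U1-associated splicing factor, was at 4.94 RPKM in TRAP and 22.3 in input, with a surgery difference of -1.73 (SE 0.10, adjusted p = 4.0e-05). Srsf11, an SR-related protein, measured 4.32 RPKM in TRAP and 15.2 in input. Son, a speckle protein, reached 3.18 RPKM in TRAP and 12.6 in input. Hnrnpk, which binds C-rich RNA, stood at 4.35 RPKM in TRAP and 19.4 in input, and Ddx5, an RNA helicase, at 5.04 RPKM in TRAP and 27.6 in input. At the other end of the list, Clk3, a kinase of SR proteins, had a difference of -0.32. Many genes of this family are known to make a second, unproductive or intron-retaining transcript, and the table has 1 value per gene, so isoforms were not separated.

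Other regulatory groups lay below all members to a lesser degree. Chromatin regulators had a median of -0.77 over 31 genes, 0 higher and 4 lower, close to the -0.72 of members of like length. Chd4, a nucleosome remodeller, was at 7.71 RPKM in TRAP and 16.2 in input. Immediate early genes, which answer stimuli within minutes, had a median of -0.64 over 22 genes, 0 higher and 4 lower, and 19 were called lower after surgery. Klf6, a zinc finger factor, measured 4.36 RPKM in TRAP and 11.1 in input, and Jund, a Jun family member, was the only one above 0, with a difference of 0.15. Nfkbia, the inhibitor that restrains NF-kB, was past 2-fold lower in all 5 pairs, at 11.4 RPKM in TRAP and 27.5 in input, and was chosen after its values were seen. Zinc finger genes named Zfp, 134 of them, had a median of -0.33, 0 higher and 6 lower, like all members.

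Histone messages lay on the upper side. Of 23 histone members, 3 were past 2-fold higher and 0 lower, with a median of 0.47 against 0.24 for members of like length; Hist1h4h, a histone H4 gene, stood at 109 RPKM in TRAP and 51.5 in input, and H2afj, a variant, at 103 RPKM in TRAP and 56.3 in input. Most histone messages lack a poly(A) tail, and the libraries were poly(A) selected; the part of this in the values was not tested. The 14 genes listed as selenoproteins, 1 of which, Selenbp1, binds selenium without containing selenocysteine, had a median of 0.38 with CAG input and -0.13 with Tie2 input, with 0 higher and 1 lower past 2-fold. Gpx4, a selenoprotein which clears lipid peroxides, was at 2408 RPKM in TRAP and 1205 in input. Chaperones ranged from -1.82 to 0.58, with a median of -0.53 over 36 genes and 8 lower (22.2%, against 8.20% of all members). After surgery 11 of the 36 were called lower and 5 higher. Over all genes tested there, 35.2% were called lower and 22.5% higher. Cryab, a small heat shock protein of the sarcomere, measured 1811 RPKM in TRAP and 1522 in input. Hspa9, a mitochondrial chaperone, reached 29.8 RPKM in TRAP and 73.0 in input.

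A set of genes differed strongly in the unoperated pair but not in every other pair. Nexn, a Z-disc protein, had the lowest difference of all protein-coding members of 5 RPKM or more. It stood at 7.74 RPKM in TRAP and 184 in input without surgery. In sham hearts it stood at 46.0 and 89.7 RPKM in TRAP against 162 and 131 RPKM in input, and in band hearts at 137 and 11.97 RPKM in TRAP against 197 and 220 RPKM in input. TRAP levels of Nexn ranged from 7.74 to 137 RPKM over the CAG libraries and input levels from 131 to 220 RPKM, and limma did not call it (adjusted p = 0.061). Trdn, triadin of the calcium release complex, was at 12.7 RPKM in TRAP and 95.3 in input, with surgery differences of -0.82, -0.01, -0.18 and -3.77. Bcmo1, which cleaves beta-carotene and was chosen after its values were seen, measured 2.18 RPKM in TRAP and 31.8 in input, with differences of -0.61, -0.13, 0.15 and -4.08. In each of these 3 genes band pair 2 was the lowest of the surgery pairs.

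Levels of some genes also differed between the unoperated inputs. Uqcrb, a subunit of complex III and the exception in its list, had 38.4 RPKM in TRAP against 298 RPKM in CAG input but 19.2 RPKM in Tie2 input, so its difference was -2.93 with the first and 0.97 with the second. Rpl39 had 177 RPKM in TRAP against 775 RPKM in CAG input and 29.0 RPKM in Tie2 input, with differences of -2.13 and 2.57. Rpl22l1, a paralog of a ribosomal protein, had 1.10 RPKM in TRAP against 23.0 RPKM in CAG input and 0.895 RPKM in Tie2 input. Cd36, the fatty acid transporter, had 21.8 RPKM in TRAP against 77.5 RPKM in CAG input and 13.7 RPKM in Tie2 input. After surgery Cd36 was at 67.1 and 115 RPKM in sham TRAP and 133 and 36.5 RPKM in band TRAP, against 78.2 and 64.5 RPKM in sham input and 83.3 and 81.7 RPKM in band input. Of the 891 lower members, 251 had CAG input more than 2-fold above Tie2 input, as did 508 of all 10862 members. The lower members were themselves selected on CAG input. Of the 251, 126 had a surgery pair at or above 0, and of the other 640 lower members 71 did. The part of the single unoperated libraries in these differences was not tested.

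**Figure D5:**
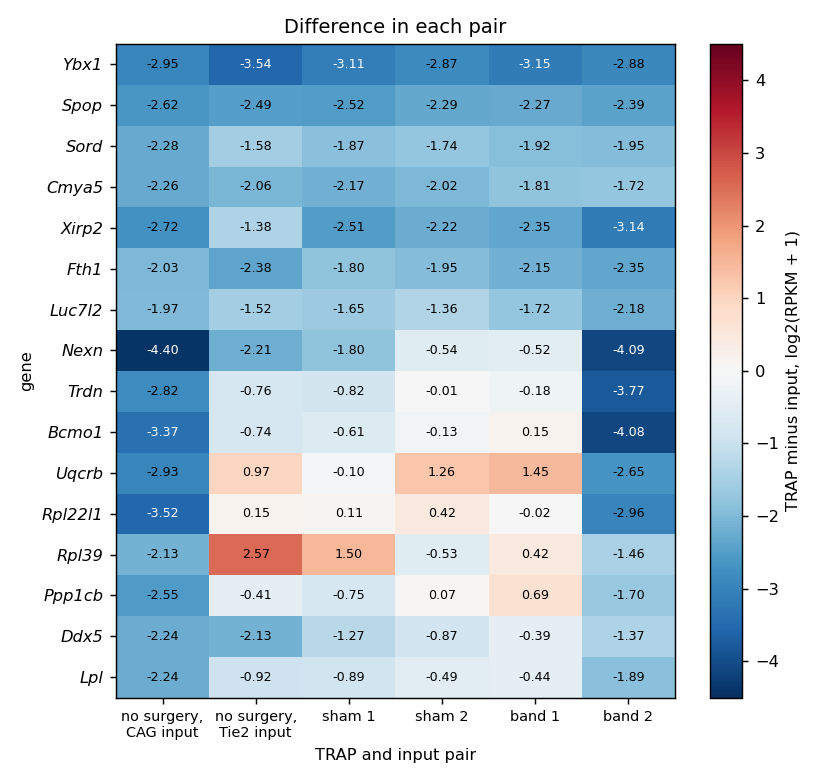
TRAP minus input difference on the log2(RPKM + 1) scale for 16 genes (rows) in the unoperated pair with CAG input, the same TRAP library with Tie2 input, and the 4 surgery pairs (columns), with blue for lower in TRAP. The upper 7 genes are lower in every column; the others range from -4.40, for Nexn with CAG input, to 2.57, for Rpl39 with Tie2 input.

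Although no gene was past 2-fold higher in every pair, a few came close. Polr2f, a subunit shared by the RNA polymerases, reached 900 RPKM in TRAP and 361 in input, with surgery differences of 1.11, 0.83, 0.83 and 1.52. Tmem205, a transmembrane protein, stood at 263 RPKM in TRAP and 115 in input, with surgery differences between 0.97 and 1.17 (limma 1.08, SE 0.06, adjusted p = 4.0e-05). Both were chosen after their values were seen. The largest positive difference among members of 5 RPKM or more belonged to Snhg9, a short noncoding host gene of a small nucleolar RNA, at 68.2 RPKM in TRAP and 9.46 in input. Of the 15 largest positive differences, 6 were pseudogenes, 2 long noncoding RNAs, 5 unmatched identifiers and 2 protein-coding genes, Mrps34 and Ccl27a, a chemokine gene at 52.5 RPKM in TRAP and 19.2 in input. Among the 15 members farthest outside the range of their surgery pairs, taken from those at 5 RPKM or more in all 10 CAG libraries, 7 were mitochondrially encoded, 5 pseudogenes, 2 unmatched and 1 protein coding, the leukocyte gene Lst1, at 21.8 RPKM in TRAP and 11.7 in input.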

How the data were processed

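The deposited table gives 1 RPKM value per gene and library, made by the authors; per the submitters' processing notes the tools were CASAVA 1.8.2, TopHat 1.4 and HTSeq 0.5.3 on build NCBIM37. Per the labels' protocols, 2 rounds of poly(A) selection and random hexamer priming preceded libraries that do not mark strand. RPKM times length gave whole reads within 0.02 for 233410 of 233410 values, which gave depth. The 53 samples are held in 12 library columns, and column names of surgery libraries also resemble titles of an earlier deposit. How the samples of a library ending in l1 and l2 were joined is not stated in the labels.

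Differences are log2(RPKM + 1) of TRAP minus that of input, which understates changes of low genes; past 2-fold means beyond 1 either way. The unoperated pair has no test. limma 3.58.1 in R 4.3.3, with an intensity trend and Benjamini-Hochberg adjustment over 11654 genes, tested TRAP against input over sham and band, with all 12 libraries sharing 4 residual degrees of freedom; it was tested on simulated data. Classes came from RefSeq by symbol (10533 of 10862 matched). Named genes were the 15 highest and 15 lowest of at least 5 RPKM, 15 farthest outside the surgery pairs among those at 5 RPKM in all 10 CAG libraries, and members of 50 lists. Members and lists were chosen with earlier results of these data known. Alternatives covered pseudocount, minimum level, scaling, the other input, the length trend, the replicate block and each library left out. Of the Tie2 libraries, Tie2 TRAP entered only the limma fit; 25 symbols in date form were not named.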

Additional observations from a re-analysis of the deposited data

Results flagged for a closer look

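Among 319 genes examined by name, 4 were more than 2-fold higher in TRAP without surgery while every surgery pair had the opposite sign. The difference between these conditions was not tested, since the unoperated pair is 1 library each. Snhg9 differed by 2.73 without surgery and by -0.19, -0.67, -2.37 and -2.18 in the sham and band pairs. Its TRAP level was 68.2 RPKM without surgery, 20.8 and 17.6 RPKM in sham and 2.45 and 2.53 RPKM in band hearts. Gm14059, an unmatched identifier, differed by 1.52 without surgery and by -0.74, -0.34, -1.60 and -1.43 after it. The pseudogene Gm10712 differed by 1.12 without surgery and after it by -0.32, -0.79, -1.81 and -1.24. The pseudogene Gm5566 differed by 1.03 without surgery and after it by -0.22, -0.36, -1.45 and -1.37. All 4 transcripts are under 1000 bases.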

How the results depend on the processing

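Counts past 2-fold without surgery, 112 higher and 891 lower, became 202 and 2050 with a pseudocount of 0.1, 57 and 235 with 5, and 171 higher with Tie2 input. A minimum of 5 RPKM left 536 lower. Rescaling without mitochondrial and haemoglobin reads gave 46 and 1494, centring 465 and 423, quantile normalization 216 and 444, and removing the length trend 14 higher. The slope per doubling of length, -0.26, was -0.28 with a pseudocount of 0.1, -0.28 without mitochondrially encoded, ribosomal protein and respiratory chain genes, and -0.23 with Tie2 input; the cause was not tested. With Tie2 input the differences of Cd36, Pdk4, Rpl22l1, Rpl39, Sarnp and Uqcrb were 0.63, 0.44, 0.15, 2.57, 0.055 and 0.97, all of the other sign. Of the other comparisons of single genes with an alternative, 2378 kept their direction and side of the threshold, 378 no longer passed it and 38 newly passed it. List medians were less stable. Of their comparisons with an alternative, 293 were classed as moved and 155 as the same, with 48 moved by centring and 20 by a minimum of 5 RPKM.

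After surgery, 2625 genes were called higher and 4107 lower. Rescaling gave 1458 and 6034. Quantile normalization gave 3366 and 2798 and a minimum of 5 RPKM in 2 libraries 2199 and 1938 of 6511 tested, both with more higher than lower. With 1 library left out, calls ranged from 2054 to 3156 higher and from 3234 to 4925 lower. Replicate numbers did not pair the samples (correlation of deviations -0.17 in sham and 0.03 in band); the replicate block gave 2536 and 3967, and crossed numbers in sham, chosen after seeing the data, 2590 and 4061.

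One library per arm, pooled animals and a table with 1 value per gene limit these data. At the few reads of the microRNA loci, counting error alone spans several-fold.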
